A study of Mus musculus with 18 samples.

Results

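The cytosolic ribosomal proteins, the protein part of the ribosomes that translate nuclear mRNAs, were examined in the livers of 18 mice. Members were taken by gene symbol alone: Rpl or Rps followed by a number with at most a short suffix, plus Rpsa, Rplp0, Rplp1, Rplp2 and Fau, with S6 kinases and pseudogene symbols left out. The rule found 84 genes among the 19057 gene rows of the table. Of these, 78 were core ribosomal proteins and 6 were paralogs whose symbol ends in l or in l and a digit (Rpl22l1, Rpl32l, Rpl39l, Rpl3l, Rpl7l1 and Rps27l). Rpl36al does not match the rule and was kept in a list of translation factors instead.

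The livers came from male ICR mice, an outbred stock, all 10 weeks old and with 3 mice in each of 6 groups. The Con mice had a regular diet and saline. The HFD mice had a high-fat diet and saline, and the diet was shared by the HFD+AOS, Con-FMT and A10-FMT groups. Alginate oligosaccharide (AOS), a breakdown product of a brown-algae polysaccharide, was given at 10 mg/kg to AOS mice on the regular diet and to HFD+AOS mice on the high-fat diet. Con-FMT and A10-FMT mice received intestinal microbiota by mouth (fecal microbiota transplantation) from pooled material of untreated donors or of donors dosed with AOS at 10 mg/kg, so the recipients of a group share 1 donor pool. Values are RPKM, read numbers scaled to the length of the gene and to the depth of the library, so that levels of genes can be compared per length. In whole liver, fewer cells of a type and less RNA per cell cannot be told apart.

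A ribosome is built from a large (60S) and a small (40S) subunit, each with ribosomal RNA and 1 copy of nearly every ribosomal protein, so cells need these proteins in balanced amounts. Their mRNAs are among the most abundant of any tissue and typically start with a C followed by a run of pyrimidines, the 5' terminal oligopyrimidine (TOP) tract. Through this tract the kinase mTORC1, acting by way of the RNA-binding protein Larp1, adjusts the translation and stability of the whole class to nutrient supply. In hepatocytes, which export large amounts of plasma protein, ribosome content is known to follow feeding.

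The starts of several members are shown to make the tract visible, because it is the sequence feature that the class is best known for and that the choice by symbol did not use. Each line is 30 bases from 10 bases before the annotated start to the 20th base of the transcript, from RefSeq on GRCm38.p6, written 5' to 3' on the strand of the gene. Capitals mark the longest run of C followed by at least 4 pyrimidines (C or T) that begins between 5 bases before and 10 bases after the start. The first 7 are members with a tract, Rack1 and Eef1a1 are other translation genes with one, and Rpl13 and Rpl7l1 are members without one.
Rpl27a (chr7:109519185-109519214, plus strand): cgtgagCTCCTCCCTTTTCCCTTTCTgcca
Rpl15 (chr14:18270967-18270996, minus strand): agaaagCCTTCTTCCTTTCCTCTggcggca
Fau (chr19:6057937-6057966, plus strand): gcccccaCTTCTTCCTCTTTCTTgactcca
Rpl35 (chr2:39005112-39005141, minus strand): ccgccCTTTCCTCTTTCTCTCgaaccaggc
Rps18 (chr17:33955646-33955675, minus strand): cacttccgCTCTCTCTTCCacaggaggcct
Rps6 (chr4:86857348-86857377, minus strand): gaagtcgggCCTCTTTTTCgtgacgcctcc
Rpl38 (chr11:114668570-114668599, plus strand): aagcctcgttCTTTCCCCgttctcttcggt
Rack1 (chr11:48800350-48800379, plus strand): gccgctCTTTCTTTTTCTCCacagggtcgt
Eef1a1 (chr9:78481705-78481734, minus strand): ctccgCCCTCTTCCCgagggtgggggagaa
Rpl13 (chr8:123102340-123102369, plus strand): tttcgcctgattttgattggcgtttgagat
Rpl7l1 (chr17:46782637-46782666, minus strand): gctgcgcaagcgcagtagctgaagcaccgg

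A start was found for 61 of the 81 members that could be tested, and 35 of them (57.4%) carried a tract with a median length of 8 bases. Among the 8313 other tested genes with a start, 2511 (30.2%) carried one, with a median of 6 bases. The share was 53.8% of 13 TOP translation factors, and it lay at 31.9% of 69 mitochondrial ribosomal proteins, 30.5% of 59 respiratory chain subunits, 29.6% of 54 ribosome biogenesis factors and 22.6% of 31 proteasome subunits. A tract that depends on the exact start was searched on the gene's own strand only, and 9 of the 61 members have several annotated starts, of which any could hold it. Members without a match have no such letters in this window, and nothing follows from that for their translation.

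As a class the members were abundant. Together they held 2.69% to 4.04% of the summed RPKM of a library, or 19971 to 30255 RPKM. Their mean RPKM over the 18 libraries reached 200 or more for 60 members, out of 409 genes of the whole table at that level, so 14.7% of the genes there were members. The median of the mean RPKM was 290 over the 81 tested members and 6.99 over all 10507 tested genes.

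The highest mean level, 823 RPKM, was that of Rpl10, a late-joining protein of the large subunit, followed by Rps2 of the small subunit at 803 RPKM. Rps27 (647 RPKM), Rps26 (640 RPKM), Rpl41 (630 RPKM), whose product is one of the shortest known proteins, and Rpl28 (594 RPKM) came next. In every library Rpl10 lay between 722 and 998 RPKM and Rps2 between 676 and 959 RPKM, so the ranges of these 2 genes overlapped.

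The stalk proteins, which draw translation factors to the large subunit, did not have equal RNA levels. Rplp1 had a median of 487 RPKM (lowest 392, highest 598), Rplp0 a median of 286 RPKM (242 to 324) and Rplp2 a median of 264 RPKM (209 to 305). Rpl23a, which sits at the exit of the nascent chain, had a median of 568 RPKM (423 to 726), and Rpl4, a core protein of the large subunit, had one of 350.1 RPKM (306 to 442). On the small subunit, Rpsa had a median of 277 RPKM (212 to 350.4). Fau and Rps27a are made as fusions with a ubiquitin-like protein and ubiquitin, and had medians of 389 RPKM (302 to 477) and 232 RPKM (179 to 261). The ranges of Rplp1 and of Rplp0 did not overlap, whereas those of Rplp0 and Rplp2 did.

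At the other end, 8 members had means from 1 to under 50 RPKM. They were Rpl29 (1.22 RPKM), Rpl34 (6.35 RPKM), Rps6 (8.99 RPKM), Rps15a (13.2 RPKM), Rpl7l1 (23.0 RPKM), Rps20 (26.6 RPKM), Rpl22 (42.3 RPKM) and Rpl22l1 (46.0 RPKM). A ribosome holds 1 copy of nearly every core protein, yet Rpl29 was listed at 0.80 to 2.02 RPKM and Rps6 at 5.54 to 12.9 RPKM in the 18 libraries. Ribosomal protein genes have many near-identical processed copies, and how reads shared with them were counted can set such levels. In the GENCODE M21 transcripts, a median of 55.4% of the 50-base words of a member also occurred in transcripts of other genes, from 0% to 98.6% for Rps27. Among the 8 low members it was 84.6% for Rps6, 78.5% for Rpl29 and 57.3% for Rpl22l1. The others lay under the median: Rpl34 (50.6%), Rps15a (49.1%), Rpl22 (24.5%), Rpl7l1 (12.2%) and Rps20 (7.44%). The Rps20 transcript used for this count had 3706 bases, the longest of the members, which bears on its percentage. Whether its RPKM was scaled to a like length was not examined. Rps27 and Rpl10 (92.1% shared) were among the highest members. Spearman's rho between the shared percentage and the mean RPKM was 0.21 across the 81 tested members, as a description of genes that share their libraries. It cannot tell how the reads of a single member were counted. All levels of members with shared sequence are therefore uncertain, and the part of read sharing in the low values was not tested.

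The paralogs fell into 2 kinds. Rpl32l, Rpl39l and Rpl3l were at most at 0.28, 0.09 and 0.18 RPKM, were above 0 in 5, 1 and 4 of the 18 libraries, and were not tested. Rps27l, a paralog of Rps27 known as a p53 target, was abundant at a mean of 198 RPKM, and Rpl22l1 was listed at about the level of its parent gene Rpl22. The ratio of Rps27l to Rps27 averaged 0.311 ± 0.0477 in Con and 0.316 ± 0.025 in HFD (SD, n = 3 each). The ratio of Rpl7l1 to Rpl7 was lower, at 0.0759 ± 0.00112 in Con and 0.0816 ± 0.00461 in HFD (SD, n = 3 each).

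The members varied together from library to library, also among mice of 1 group. Over the 18 libraries, the correlation of a member with the mean of the others had a median of 0.91 across the 81 members, 69 members reached at least 0.8 and 43 at least 0.9. The closest were Rpl13 (0.99), Rpl15 and Rps18. These are descriptions over libraries that share their scaling. For comparison, the median correlation of the 10426 other tested genes with the member mean was 0.17, and 60 of them (0.575%) reached 0.8. The median correlation between pairs of members was 0.81, and 0.84 after the group means were removed. The corresponding medians were 0.53 for 71 respiratory chain subunits, 0.43 for 37 proteasome subunits and 0.22 for 78 mitochondrial ribosomal proteins, the other large complexes examined. Of all the variance of the 81 members on the log2(RPKM + 1) scale, 70.8% was carried by the library mean of the class.

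This shared level varied among the libraries of a group and among the group means, which were not tested against each other. The mean log2(RPKM + 1) of the 81 members was 7.73, 8.10 and 7.99 in the Con libraries, 8.02, 7.91 and 7.87 in AOS, 7.53, 8.0 and 7.84 in HFD, 7.72, 7.59 and 7.91 in HFD+AOS, 7.64, 7.80 and 7.69 in Con-FMT and 7.82, 7.82 and 7.64 in A10-FMT. Neighbouring groups overlapped, except that the lowest AOS library lay above the highest Con-FMT and A10-FMT libraries. The group means spanned 0.23 on the log2 scale, the pooled SD within groups was 0.15, and the highest library exceeded the lowest by 0.57, which is 1.49-fold. Of the variance of this mean, 65.4% lay within groups, a share not adjusted for the number of libraries per group.

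The share of the summed RPKM was 3.51% ± 0.597 in Con, 3.65% ± 0.295 in AOS, 3.31% ± 0.585 in HFD, 3.15% ± 0.434 in HFD+AOS, 3.16% ± 0.289 in Con-FMT and 3.08% ± 0.2 in A10-FMT (SD, n = 3 each). The first HFD library had the lowest share, 2.69%, and the second Con library the highest, 4.04%. The first HFD library was the lowest of all 18 for 51 of the 81 members, and the second Con library was the highest for 49. Both subunits took part, since the mean of the 46 large-subunit core members minus that of the 32 small-subunit core members stayed between -0.08 and -0.03 on the log2 scale in every library. Set against the median of all tested genes of the same library, the first HFD library remained the lowest (a difference of 4.57) and the second Con library the highest (5.10).

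**Figure D1:**
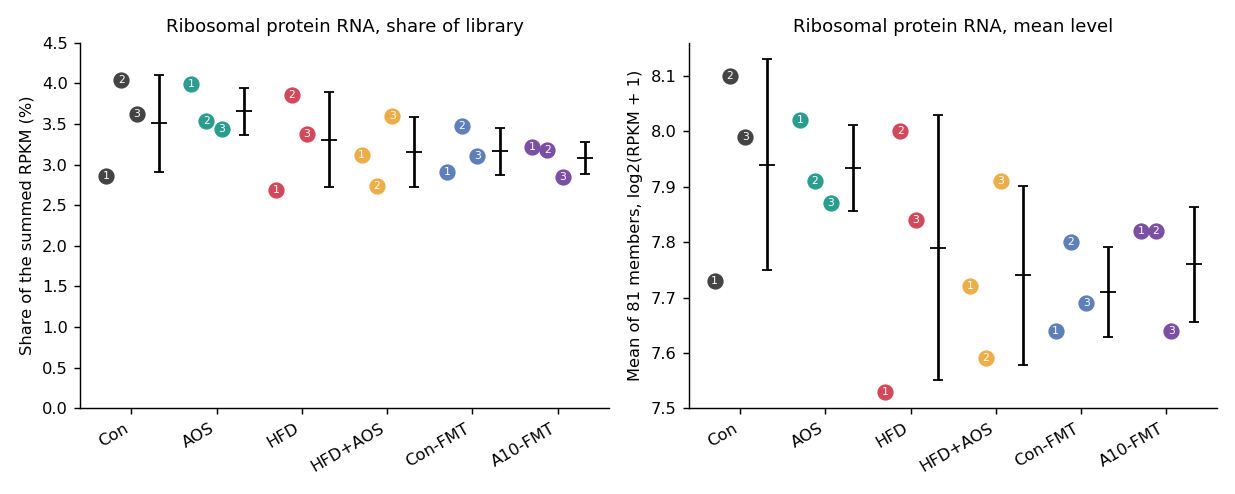
Left, the share of the summed RPKM held by the 84 members (percent); right, the mean log2(RPKM + 1) of the 81 tested members. Points are the 18 libraries numbered by replicate, with the group mean and SD (n = 3) beside them. HFD 1 (2.69%) and Con 2 (4.04%) are the extremes. On the right, 65.4% of the variance lies within groups, a share not adjusted for the number of libraries per group.

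**Figure D2:**
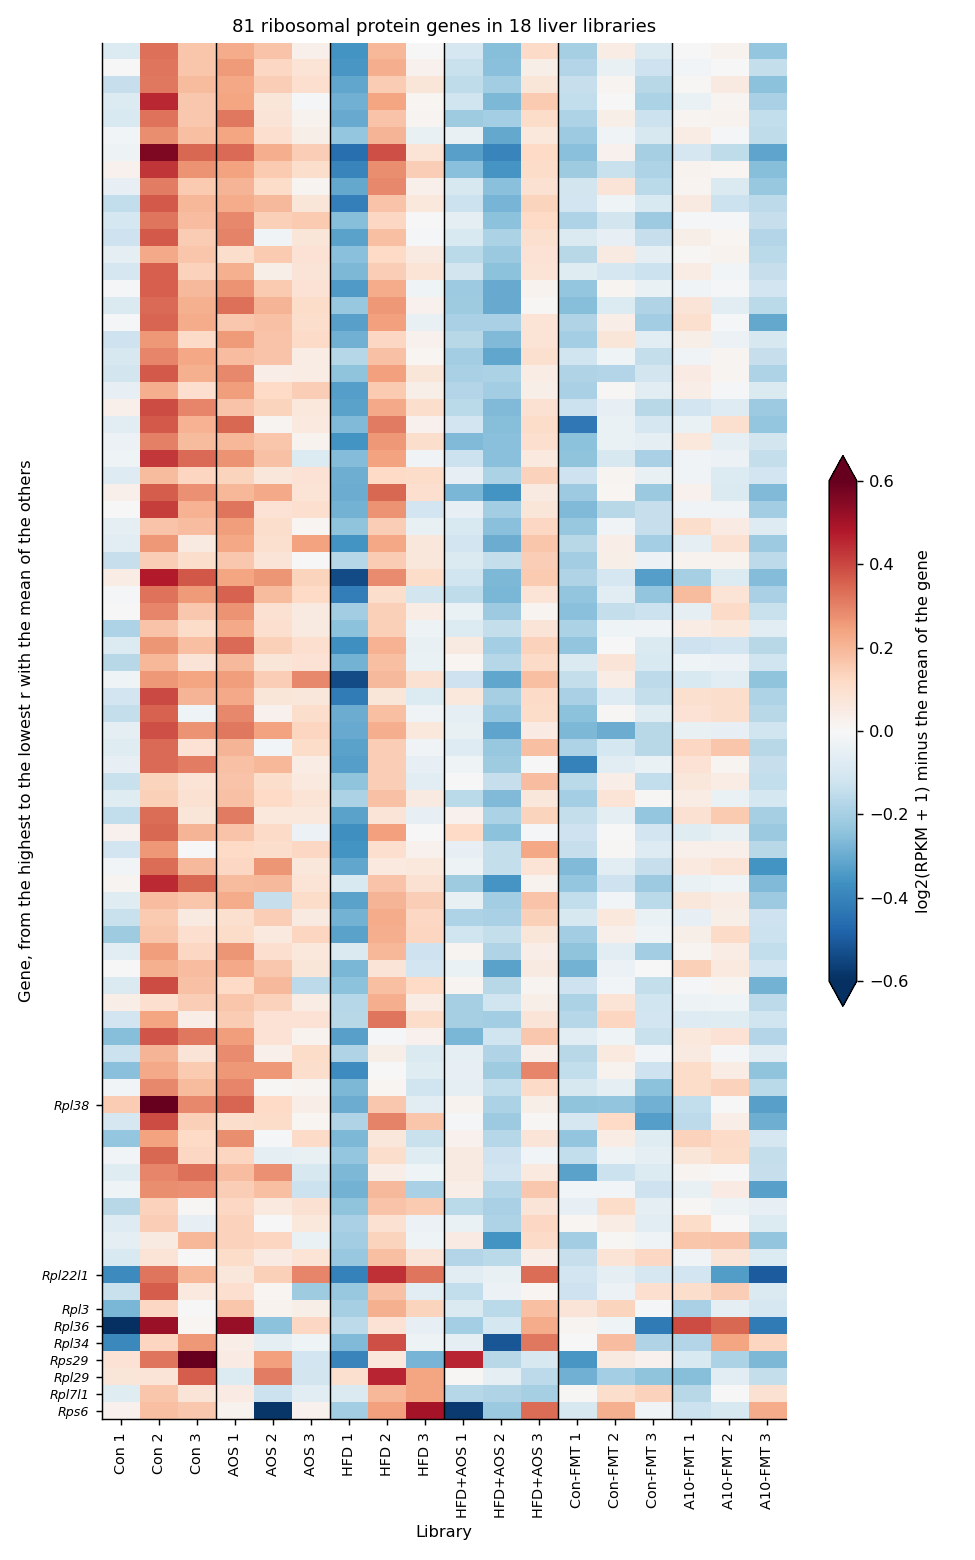
The 81 tested members in rows, ordered from the highest to the lowest correlation with the mean of the others, and the 18 libraries in columns, with colour for log2(RPKM + 1) minus the mean of the gene and symbols beside 9 of the rows. Whole columns are blue (HFD 1, HFD+AOS 2) or red (Con 2, HFD 2), and the rows at the bottom, from Rpl22l1 to Rps6, follow this least.

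Several features of the libraries stand beside these levels, and their part in them was not tested. The 10 most abundant genes of a library took 29.8% to 39.0% of the summed RPKM, with 35.5% in the first HFD and 33.6% in the second Con library. All 6 hepatocyte markers were above 0 in all 18 libraries, and their sum lay between 36600 and 60500 RPKM, so the tissue label held. The 6 erythroid markers summed to 1050 to 3920 RPKM and the 7 macrophage markers to 55.1 to 134 RPKM. The ranges of HFD overlapped those of every group it was compared with for both lists, while AOS lay above HFD+AOS and Con-FMT in both sums. The 5 proliferation markers reached 12.2 RPKM in 1 HFD library, the second, and at most 2.1 RPKM in every other group, and the 4 adipocyte markers reached 29.2 RPKM in A10-FMT and at most 0.47 RPKM elsewhere.

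Both the third Con and the third AOS library stood apart in another way. Among all tested genes that differed by at least 1 log2 unit within the group, the third library lay between the other 2 for 98.0% in Con and 96.5% in AOS, against 60.0% to 76.8% in the other 4 groups. Whether these libraries are single livers like the rest was not tested, so n = 3 in Con and AOS rests on the labels. Over the 81 members the third library lay between the other 2 for 74 in Con and 24 in AOS. It did so for 76 in HFD, 43 in Con-FMT, 4 in HFD+AOS and 3 in A10-FMT. The members vary together, so these counts are not separate observations and do not settle the question for the third Con and AOS libraries. Without both libraries 0 members were called in each of the 7 comparisons, and the member median was -0.14 in HFD vs Con and 0.05 in AOS vs Con.

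The comparison of HFD with Con asks what the diet did to the class. No member passed the test: 0 of 81 had an adjusted p under 0.05 (limma, Benjamini-Hochberg over all 10507 tested genes), with 40 genes called in all (0.381%), and 6 members had an unadjusted p under 0.05, when 15.4% of all genes did. The log2 fold change was below 0 for 72 of the 81 members, with a median of -0.15, while the median of all genes was 0.05. It had the same median for the core members of the large and of the small subunit (-0.15 each). The median moved with single libraries, to -0.03 without the first HFD library and to -0.26 without the first Con library. When the library medians were set equal, the median of the members was -0.20, 76 of the 81 were below 0 and 30 had an unadjusted p under 0.05, when 15.5% of all genes did, and still 0 were called. Before the library medians were set equal, the median was -0.19 for the 35 members with a tract at the start. It was -0.14 for the 26 with a start and no tract and -0.14 for the 20 without a start.

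Rps29, a small zinc-binding protein of the small subunit, showed the largest difference of this comparison, with 270.4, 318 and 402 RPKM in Con and 194, 266 and 209.6 RPKM in HFD. Its groups did not overlap, as for 18.5% of all genes, and it was the 1 member of which that was true. The log2 fold change was -0.56 (SE 0.18, 95% interval -0.94 to -0.17, limma adjusted p = 0.168). Rpl38, a large-subunit protein known for its role in patterning of the embryonic skeleton, was at 579, 807 and 635 RPKM in Con and 423, 582 and 498 RPKM in HFD. The lowest Con value lay just under the highest HFD value, and the log2 fold change was -0.42 (SE 0.14, limma adjusted p = 0.168). Rpl28 (-0.33), Rpl37 (-0.27) and Rps15 (-0.30) were also among the members with an unadjusted p under 0.05, and their groups overlapped. The values in the other direction were small, among them log2 fold changes of 0.10 for Rpl3, 0.09 for Rpl29, 0.07 for Rpl22l1 and 0.06 for Rpl7l1.

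**Figure D3:**
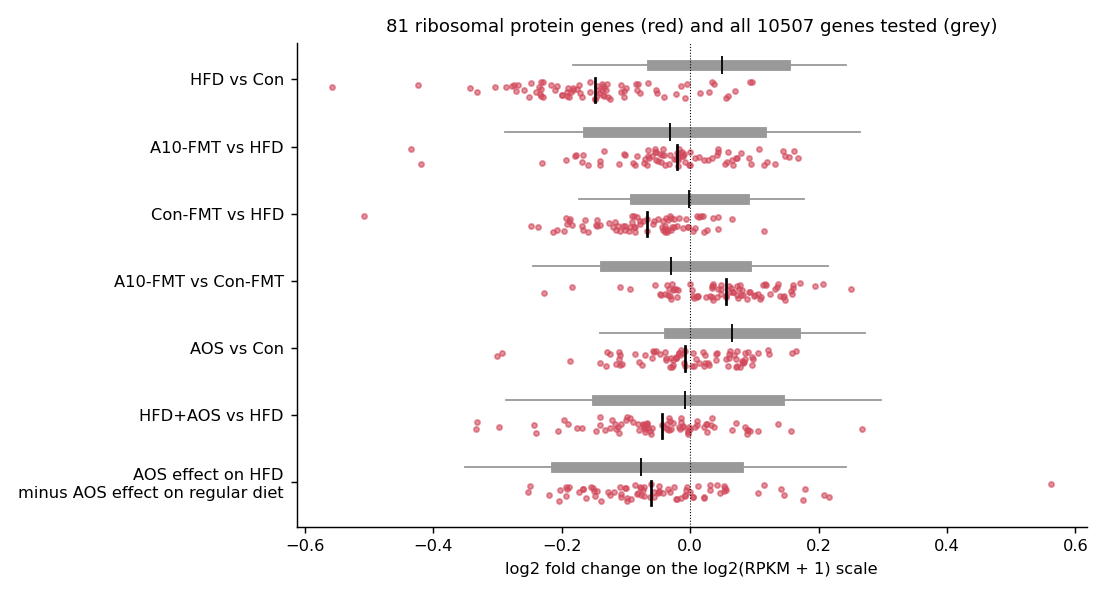
Log2 fold changes on the log2(RPKM + 1) scale in the 7 comparisons; red points are the 81 tested members with their median as a black line, and the grey bar, line and tick are the 25th to 75th percentile, the 10th to 90th percentile and the median of all tested genes. The members sit left of the other genes in HFD vs Con, with medians of -0.15 and 0.05, and the medians lie closer together in the other 6 comparisons.

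The transplant comparisons ask whether microbiota changed the livers on the high-fat diet. Against HFD, A10-FMT called 693 genes (6.6%, or 0.742% with only the 2 groups in the fit) but 0 of the 81 members, of which 2 had an unadjusted p under 0.05 when 24.5% of all genes did. The median of the members was -0.02 and that of all genes -0.03, with 28 members above 0 and 53 below, and it changed sign to 0.02 with equal library medians. Con-FMT against HFD called 1 gene (0.00952%) and 0 members, with 1 member at an unadjusted p under 0.05 when 6.63% of genes were there, and a member median of -0.07. A10-FMT against Con-FMT called 177 genes (1.68%) and 0 members. There 0 members had an unadjusted p under 0.05, when 16.4% of genes did, and 61 of the 81 fold changes were above 0 with a median of 0.06. These 3 comparisons share their groups, so their values are not independent of each other.

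Rpl29, a large-subunit protein, was the lowest tested member and the one closest to the threshold in these comparisons. It was at 1.35, 2.02 and 1.59 RPKM in HFD, 0.84, 1.10 and 0.99 RPKM in A10-FMT and 0.80, 0.91 and 0.86 RPKM in Con-FMT. Every HFD value lay above every transplant value, and so did the Con values of 1.31, 1.32 and 1.83 RPKM. The log2 fold change was -0.42 (SE 0.12, 95% interval -0.68 to -0.16, limma adjusted p = 0.0506) for A10-FMT and -0.51 (SE 0.12, limma adjusted p = 0.392) for Con-FMT against HFD. At values near 1 RPKM these folds are compressed by the pseudocount of 1, and with a pseudocount of 0.1, with the replicate block or without the first HFD library (limma adjusted p = 0.0291) the A10-FMT difference passed the threshold. Groups that do not overlap were found for 1 member in A10-FMT against HFD, when 23.4% of all genes had them, and for Rpl29 and Rpl35 in Con-FMT against HFD, when 10.1% did. Rpl35 was at 416, 500.4 and 474 RPKM in HFD and 378, 408 and 381 RPKM in Con-FMT (log2 fold change -0.25, SE 0.12, limma adjusted p = 0.742).

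Rpl22l1, the paralog that can replace Rpl22, was the other member with an unadjusted p under 0.05 when A10-FMT was set against HFD. It was at 33.9, 61.5 and 56.6 RPKM in HFD, 41.7, 43.3 and 42.1 RPKM in Con-FMT and 41.6, 35.6 and 31.6 RPKM in A10-FMT. The first HFD library lay within the A10-FMT values, so these groups overlapped, and the log2 fold change was -0.43 (SE 0.20, limma adjusted p = 0.199). It was -0.70 without the first HFD library (limma adjusted p = 0.0261) and -0.28 without the second, and over all alternatives the adjusted p from limma reached 0.501. Its parent Rpl22 stayed between 36.8 and 46.8 RPKM in all 18 libraries. The ratio of Rpl22l1 to Rpl22 was 1.12 ± 0.224 in Con, 1.16 ± 0.122 in AOS, 1.22 ± 0.26 in HFD, 1.16 ± 0.0965 in HFD+AOS, 1.01 ± 0.0328 in Con-FMT and 0.85 ± 0.0591 in A10-FMT (SD, n = 3 each). The A10-FMT ratios of 0.912, 0.842 and 0.795 lay below every Con-FMT and HFD ratio, the nearest being 0.922 in the first HFD library, whereas the lowest Con ratio was 0.862.

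In A10-FMT against Con-FMT the groups did not overlap for 3 members, when they did not for 18.3% of all genes. These were Rpl22l1, Rpl3 and Rps25. Rpl3, a protein near the peptidyl transferase centre, was at 197, 204 and 185 RPKM in Con-FMT and 163, 179 and 174 RPKM in A10-FMT, with a log2 fold change of -0.18 (SE 0.12, limma adjusted p = 0.477).

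The groups given AOS itself, without a transplant, had no called member either. On the regular diet, AOS against Con called 14 genes (0.133%) and 0 members. No member had an unadjusted p under 0.05, when 15.5% of all genes did, none had groups that did not overlap, when 24.7% did, and 40 members were above 0 and 41 below, with a median of -0.01. On the high-fat diet, HFD+AOS against HFD called 919 genes (8.75%, or 4.14% with only the 2 groups in the fit), the most of any comparison, and still 0 of the 81 members. There 2 members had an unadjusted p under 0.05 when 26.2% of genes did, 60 of 81 were below 0, and the median was -0.04 beside -0.01 for all genes. Rpl29 and Rpl7l1 were the 2 members whose groups did not overlap, when 27.2% of all genes had such groups.

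Rpl7l1, a paralog of Rpl7 that takes part in ribosome assembly, had the smallest p of the members in HFD+AOS against HFD. It was at 21.5, 26.4 and 27.1 RPKM in HFD and 20.2, 20.1 and 19.8 RPKM in HFD+AOS, where its values were nearly equal. The log2 fold change was -0.30 (SE 0.09, 95% interval -0.50 to -0.10, limma adjusted p = 0.0599), and it passed the threshold with equal library medians and without the first HFD library (limma adjusted p = 0.0146). Rpl29 was at 1.21, 1.11 and 0.97 RPKM in HFD+AOS, below every HFD value, with a log2 fold change of -0.33 (SE 0.12, limma adjusted p = 0.098).

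The difference between the effect of AOS on the high-fat diet and on the regular diet called 53 genes (0.504%) and 0 members, and 1 member, Rps29, had an unadjusted p under 0.05 when 14.7% of genes did. Rps29 was at 264, 303 and 235 RPKM in AOS and 350.4, 227 and 238 RPKM in HFD+AOS. The first HFD+AOS library stood above the other 2 of its group, and the difference was 0.56 on the log2 scale (SE 0.26, 95% interval 0.02 to 1.10, limma adjusted p = 0.324). The median of the members was -0.06 and that of all genes -0.08, and that of the members changed sign to 0.02 with equal library medians.

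The precision of these fits limits how large a change could have been missed. The half-width of the 95% interval of a log2 fold change between 2 groups was 0.28 at the median over the 81 members, from 0.20 to 0.57. In each of the 6 comparisons between 2 groups, the intervals of all 81 tested members lay within -1 and 1 on the log2(RPKM + 1) scale. For a member as low as Rpl29 this scale understates the change in RPKM: its log2 fold change in Con-FMT against HFD was -0.51 with the pseudocount of 1 and -0.86 with 0.1, so a change of 1 log2 unit in RPKM cannot be set aside for it.

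A few members departed from the level of the class. Relative to the mean of the 81 members, and centred per gene, Rpl3 was lowest in Con (-0.18 ± 0.01), at 0.07 ± 0.04 in HFD and highest in Con-FMT (0.17 ± 0.07). Rpl38 was highest in Con (0.23 ± 0.11) and lowest in Con-FMT (-0.15 ± 0.08), and Rps29 was at 0.23 ± 0.23 in Con and -0.18 ± 0.11 in HFD. Rpl29 was highest in HFD (0.29 ± 0.08) and lowest in Con-FMT (-0.14 ± 0.04), and Rpl22l1 was lowest in A10-FMT (-0.27 ± 0.13). Values are means ± SD on the log2 scale with n = 3, and these members were chosen by their correlation or their p, so they are given as descriptions.

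Rps6, the substrate of the S6 kinases, had the lowest correlation with the rest of the class (0.31). It was at 8.98, 10.1 and 9.97 RPKM in Con, 8.97, 5.54 and 9.0 RPKM in AOS, 7.48, 10.6 and 12.9 RPKM in HFD, 5.59, 7.40 and 11.4 RPKM in HFD+AOS, 8.19, 10.4 and 8.66 RPKM in Con-FMT and 7.99, 8.18 and 10.47 RPKM in A10-FMT. The spread lay within groups, from a single low AOS library to a wide HFD+AOS group. Rpl7l1 (0.33) and Rpl29 (0.41) came next. Of the 8 members with a correlation under 0.7, Rps29, Rpl36, Rpl3 and Rpl35a were abundant, and Rpl36 alone spanned 171 to 374 RPKM, from the first Con library to the first AOS library.

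**Figure D4:**
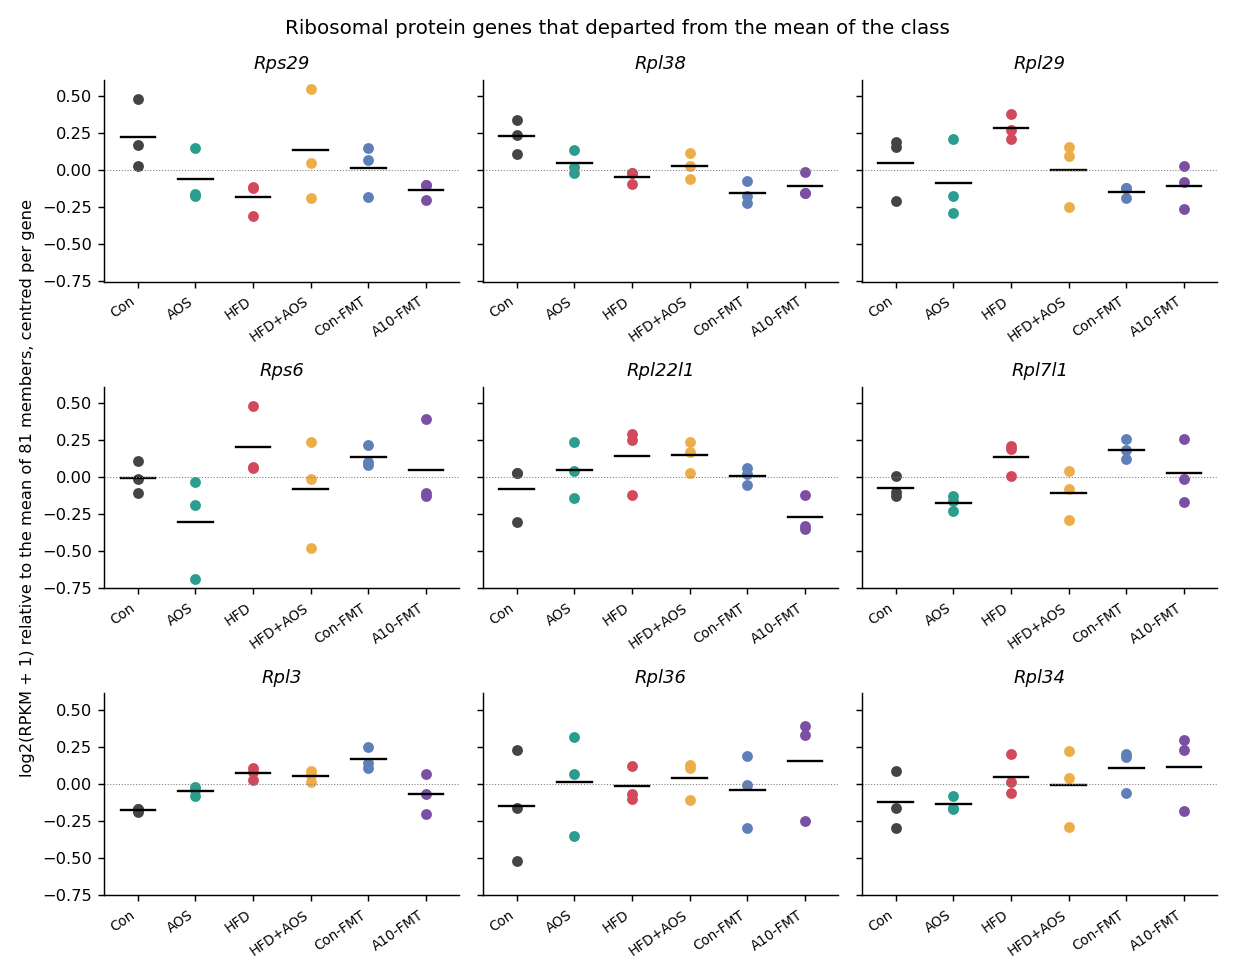
Log2(RPKM + 1) of 9 members relative to the mean of the 81 tested members and centred per gene, with 1 point per library and a line at each group mean (n = 3). Rps29 and Rpl38 have their highest group mean in Con (0.23 each), Rpl29 highest in HFD (mean 0.29), Rpl22l1 lowest in A10-FMT (mean -0.27), and Rps6 and Rpl36 scatter within groups.

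The partners of the class in translation were taken from lists fixed with the members. Of 20 tested TOP translation factors 0 were called in any of the 7 comparisons, and the mean of this list followed that of the members over the 18 libraries (correlation 0.84). Among the closest were Rack1 (0.90), a scaffold on the small subunit, and Tpt1 (0.87), which encodes a translationally controlled protein. Rack1 was at 164, 233 and 205 RPKM in HFD and 196, 229 and 227 RPKM in Con, so it had the low first HFD library of the class. Others kept apart: the correlation was 0.37 for the elongation factor Eef1a1, by far the highest of the list with a mean of 2100 RPKM, 0.28 for Eef2 and 0.43 for Pabpc1. These lists share libraries and scaling with the members.

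The ribosome biogenesis factors, which process ribosomal RNA and assemble the subunits in the nucleolus, had calls where the members had none. In HFD+AOS against HFD, 14 of 61 were called and each of them was lower (15 lower and 2 higher with equal library medians), when 8.75% of all genes were called and 4.58% were called lower, with a list median of -0.19. Tsr1, an assembly factor of the small subunit, was at 4.99, 6.13 and 5.68 RPKM in HFD and 2.50, 2.71 and 2.92 RPKM in HFD+AOS. All HFD+AOS values lay far under the HFD values, and the log2 fold change was -0.83 (SE 0.15, limma adjusted p = 0.00331). Mphosph10, a part of the U3 particle that cuts the ribosomal RNA precursor, fell from 6.44, 6.39 and 8.16 RPKM to 3.74, 4.69 and 4.24 RPKM (-0.61, SE 0.11, limma adjusted p = 0.00331). Nolc1 (-0.76), Nop58 (-0.70), a core protein of the box C/D particles that methylate ribosomal RNA, and the helicase Ddx21 (-0.54) were also lower and were picked after their values were seen.

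The number of biogenesis factors called depended on the libraries. It was between 5, without the third HFD library, and 17, without the first HFD library, and 8 without the second HFD library, the one with the proliferation markers. It was 5 when only the 2 groups entered the fit. Tsr1, Mphosph10 and Nolc1 were called under all 12 alternatives run for them, Nop58 was not without the third HFD library (limma adjusted p = 0.0592) or with only the 2 groups in the fit, and Ddx21 was not with only the 2 groups in the fit (limma adjusted p = 0.0536). In A10-FMT against HFD 3 of 61 were called, when 6.6% of all genes were, with Rrp9 higher (0.50, SE 0.12, limma adjusted p = 0.0192) and Gar1 (-0.39, SE 0.10, limma adjusted p = 0.0297) and Tsr1 (-0.55) lower, the last named after its values were seen. This share is near the background. That count was 0 without the second or the third HFD library or the first A10-FMT library. In AOS against Con 0 of 61 were called, with a list median of -0.08 beside 0.07 for all genes, and 15 were above 0. On the log2 scale, the library means of the list in HFD+AOS (2.93, 2.90 and 3.03) overlapped those in AOS (3.04, 2.94 and 3.00). They also overlapped those in Con-FMT (2.99, 3.18 and 3.04). The mean of the list had a correlation of 0.36 with that of the members over the 18 libraries.

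**Figure D5:**
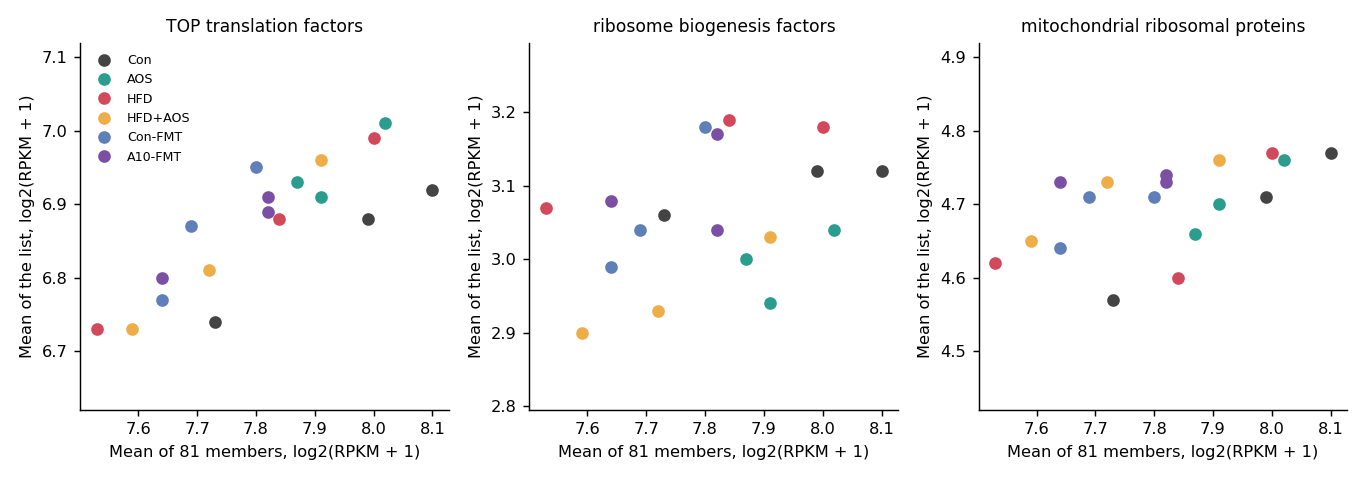
Mean log2(RPKM + 1) of 3 gene lists (vertical axes, each 0.5 log2 units long) against the mean of the 81 tested members (horizontal axes), with 1 point per library coloured by group. The TOP translation factors follow the members (correlation 0.84). The biogenesis factors (0.36) are low in HFD+AOS, where they overlap with AOS and Con-FMT, and the mitochondrial ribosomal proteins (0.57) vary little.

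RNA polymerase I and its control factors make ribosomal RNA. In HFD+AOS against HFD 2 of the 19 tested were called, both lower: Polr1a, the largest subunit of the enzyme (-0.34, SE 0.09, limma adjusted p = 0.0287), and Ttf1, its termination factor (-0.36, SE 0.09, limma adjusted p = 0.0295). The count was 0 without the second or the third HFD library or the first or second HFD+AOS library, and 2 of 19 is near the background of 8.75%. No gene of this list was called in A10-FMT against HFD.

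The mTORC1 and TOP mRNA control list had 3 of 34 called in each of these comparisons, all lower, which is near the background of 6.6% and 8.75%. Larp1, the protein that binds the TOP tract, was at 19.2, 22.8 and 21.8 RPKM in HFD, 14.6, 15.96 and 16.4 RPKM in A10-FMT and 15.6, 15.4 and 17.7 RPKM in HFD+AOS. Both of the latter groups lay wholly under HFD, and Con-FMT, at 19.8, 21.9 and 18.8 RPKM, did not. The log2 fold change of Larp1 was -0.42 (SE 0.08, limma adjusted p = 0.00874) for A10-FMT and -0.37 (SE 0.08, limma adjusted p = 0.0154) for HFD+AOS, which share the HFD libraries. The call in A10-FMT was kept with each library left out but lost with only the 2 groups in the fit (limma adjusted p = 0.111), and that in HFD+AOS was lost there too and without the second or the third HFD library or the first or second HFD+AOS library (limma adjusted p from 0.0553 to 0.0862). Ddit4, an inhibitor of mTORC1, was at 3.63, 3.40 and 3.46 RPKM in HFD and 1.40, 1.86 and 1.55 RPKM in HFD+AOS (-0.79, SE 0.18, limma adjusted p = 0.0167, or 0.0568 without the third HFD and 0.0719 without the first HFD+AOS library). In A10-FMT it was at 0.99, 1.80 and 3.21 RPKM, a wide group under HFD (-0.65, SE 0.18, limma adjusted p = 0.045), and this call was lost under 10 of 12 alternatives, with any 1 HFD library or the first or second A10-FMT library left out. Lamtor1, which anchors mTORC1 at the lysosome, was also lower in A10-FMT (-0.29, SE 0.08, limma adjusted p = 0.0413), a call lost without the second or the third HFD or the first or second A10-FMT library. The cap-binding protein Eif4e, picked after its values were seen, was lower in HFD+AOS (-0.29, SE 0.08, limma adjusted p = 0.0308), a call lost with any 1 HFD+AOS library or the second or the third HFD library left out.

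Mtor itself was not called in any comparison, with a log2 fold change of 0.27 (SE 0.08, limma adjusted p = 0.143) in HFD against Con. Myc, a driver of ribosome production, was at 0.48 to 3.02 RPKM in 16 of the 18 libraries and at 13 and 6.23 RPKM in the third HFD+AOS and the third A10-FMT libraries, and it was not called.

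The mitochondrial ribosomal proteins, which serve the ribosomes inside mitochondria, had calls that depended on the scaling, most of them higher. In A10-FMT against HFD 2 of 78 were called, both higher: Mrpl14 (0.50, SE 0.09, limma adjusted p = 0.00428) and Mrps35 (0.40, SE 0.08, limma adjusted p = 0.00652). In HFD+AOS against HFD the same 2 genes were called higher, at 0.38 and 0.28, and Mrps18b, picked after its values were seen, was lower at -0.40. Mrpl14 was at 64.8, 66.6 and 58.6 RPKM in HFD, 97.0, 92.6 and 80.5 RPKM in A10-FMT and 89.7, 77.7 and 81.01 RPKM in HFD+AOS, so the values of both groups exceeded those of HFD. Without the third HFD or the first HFD+AOS library Mrpl14 was not called in HFD+AOS (limma adjusted p = 0.0904 and 0.0937), and Mrps35 was not without any 1 of 5 libraries. With only the 2 groups in the fit neither gene was called in A10-FMT (limma adjusted p = 0.0883 and 0.123) or in HFD+AOS. The called shares of the list are below the background of 6.6% and 8.75%. With equal library medians, however, 12 of 78 were called in A10-FMT, all higher, when 10.2% of all genes were, and 6 in HFD+AOS, 5 of them higher, when 12.2% were.

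Of the proteasome subunits, 2 of 37 were called in A10-FMT against HFD, Psmd2 (-0.30, SE 0.07, limma adjusted p = 0.022) and Psmd11 (-0.45, SE 0.11, limma adjusted p = 0.0228), both of the regulatory cap, when 6.6% of all genes were, and 0 in HFD+AOS against HFD. Of the nuclear respiratory chain subunits, 0 of 71 were called in A10-FMT and 1 in HFD+AOS against HFD, Uqcr11 of complex III (0.40, SE 0.12, limma adjusted p = 0.0429). The proteasome calls were 0 without the second HFD library or the first or second A10-FMT library, and Uqcr11 was not called with any 1 HFD or HFD+AOS library left out. In the other 5 comparisons none of the genes of the lists was called. With only the 2 groups in the fit, each call named here for the lists in A10-FMT against HFD was lost, and of those in HFD+AOS against HFD Tsr1, Mphosph10, Nolc1 and Ddit4 remained. Mitochondrially encoded genes were not analysed here.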

How the data were processed

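The authors prepared RNA libraries from 18 frozen livers and sequenced them, and deposited a table of RPKM values rounded to 2 decimals. The paper's methods name SOAPaligner with multiply mapped reads kept, whereas the submitters' processing notes name Bowtie 0.12.2 and the mouse build mm10, so which aligner made the table is not settled. The unit was taken from the methods, since the header names none. Reads that fit several genes affect ribosomal proteins in particular. Read numbers were not given; the value of 1 read in 2022 sparse genes had median ratios from 0.964 to 1.03 between libraries, so relative depth was close to equal and absolute depth is unknown.

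Groups came from the sample labels. Genes that reached an RPKM of 1 in 3 or more libraries (10507 of 17109 above 0) were tested as log2(RPKM + 1) with limma 3.58.1 in R 4.3.3 (lmFit, eBayes with trend, 6 group means over all 18 libraries). Benjamini-Hochberg adjustment was made within each of 7 comparisons, and a gene was called at an adjusted p under 0.05. Each group had 3 mice. Data were simulated for HFD vs Con with 10507 genes, each drawn independently. There 94 of 100 genes changed by 1 log2 unit and 99 of 100 changed by 2 were called, and so were 9 unchanged genes. The members vary together and smaller changes were not simulated, so these shares do not give the power for the class. Python 3.11.15 with numpy 2.4.6, pandas 2.3.3, scipy 1.17.1 and matplotlib 3.10.9 made the summaries and figures.

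The members and lists were chosen with earlier results of these data known. Named were the members with the up to 3 smallest p in each direction of a comparison, the 6 highest and 6 lowest, paralogs with parents, fixed members, those most and least correlated with the rest, and up to 2 genes per list and comparison beside fixed genes; some of the genes so chosen are not reported here. Start sequences are RefSeq (GRCm38.p6), and shared 50-base words were counted in GENCODE M21 (GRCm38). Same-numbered replicates did not deviate together (correlations from -0.18 to 0.23). Alternatives were equal library medians, a pseudocount of 0.1, no filter, compared groups only, a replicate block, leaving out libraries and leaving out paralogs. Protein sequences were not analysed here.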

Additional observations from a re-analysis of the deposited data

How the results depend on the processing

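Members called stayed at 0 in HFD vs Con, Con-FMT vs HFD, A10-FMT vs Con-FMT, AOS vs Con and the difference between the AOS effects under every alternative run. In A10-FMT vs HFD 1 member was called lower with a pseudocount of 0.1 and 1 with the replicate block, and 0 to 2 with a library left out (2 without the first HFD library). In HFD+AOS vs HFD 1 was called lower with equal library medians, and 0 to 1 with a library left out (1 without the first HFD library). The median member log2 fold change moved by less than the SD between replicates of 0.15, apart from HFD+AOS vs HFD without the first HFD library, but the medians were themselves no larger than that SD and most changed sign with some library left out. With a library left out it ranged from -0.26 to -0.03 in HFD vs Con, -0.15 to 0.08 in A10-FMT vs HFD, -0.19 to 0.04 in Con-FMT vs HFD, 0.02 to 0.11 in A10-FMT vs Con-FMT, -0.11 to 0.08 in AOS vs Con, -0.19 to 0.06 in HFD+AOS vs HFD and -0.18 to 0.04 for the difference between the AOS effects. The cause of these shifts was not tested.

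The lists were rerun by alternatives chosen after seeing the data, counting genes called in either direction. In A10-FMT vs HFD the biogenesis factors (3) gave 6 with equal medians, 1 without a filter, 0 with the compared groups only and 1 without the third Con and AOS libraries (0 to 5 with a library left out). In HFD+AOS vs HFD they (14) gave 8, 5 and 7 without a filter, with the compared groups only and without those libraries (5 to 17). The TOP translation factors gave 1 with equal medians in A10-FMT vs HFD (0 to 1, and 0 to 2 in HFD+AOS vs HFD). RNA polymerase I genes gave 1 with equal medians in A10-FMT vs HFD (0 to 1), and in HFD+AOS vs HFD 0, 0 and 1 without a filter, with the compared groups only and without the third libraries (0 to 3). mTORC1 genes gave 0 and 1 with the compared groups only and without the third libraries in A10-FMT vs HFD (1 to 5), and 1 with the compared groups only in HFD+AOS vs HFD (0 to 4). Mitochondrial ribosomal proteins gave 12 with equal medians and 0 with the compared groups only in A10-FMT vs HFD (2 to 4), and 6, 0 and 1 with equal medians, the compared groups only and without the third libraries in HFD+AOS vs HFD (0 to 3). Proteasome subunits gave 0 and 0 with the compared groups only and without the third libraries in A10-FMT vs HFD (0 to 6), and 5 with equal medians and 1 with the replicate block in HFD+AOS vs HFD (0 to 5). Respiratory chain subunits gave 4 with equal medians in A10-FMT vs HFD (0 to 1), and 3, 0, 0 and 0 with equal medians, without a filter, with the compared groups only and without the third libraries in HFD+AOS vs HFD (0 to 1). All lists together gave 2 with equal medians in HFD vs Con, 3 with equal medians and 1 with the replicate block in A10-FMT vs Con-FMT (0 to 9), 0 to 1 in Con-FMT vs HFD and 1 with the compared groups only in AOS vs Con. The sample labels do not link same-numbered replicates by animal or batch, and the correlations between them cannot settle whether a batch was shared.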
